A study of Mus musculus with 8 samples.

Results

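Blood vessels thread the islets of Langerhans, the clusters of insulin- and glucagon-secreting cells in the pancreas, and 35 genes of endothelial cells and of vessel growth were followed here in RNA from mouse islets. They were taken as a list of gene symbols, drawn up with earlier results of these data known. All 35 of 35 were found among the 22632 genes of the deposited table. The genes were 14 surface, junction and vessel wall markers, 8 receptors, 7 ligands, 4 transcription factors and 2 adhesion molecules that catch leukocytes. The islets came from C57BL/6 mice, either Tcf7 -/- (knockout, KO) or littermates that were Tcf7 +/+ (wild type, WT). Tcf7 codes for TCF-1, a transcription factor at the end of the Wnt signalling pathway. The 4 groups were KO and WT mice aged 20 weeks on a high-fat diet (45% fat), and KO and WT mice aged 8 weeks on a low-fat diet (10% fat), with 2 libraries each. These diets follow the diet label. The treatment protocol speaks of regular chow where the label gives the low-fat diet. Age and diet changed together, so their effects cannot be told apart. How the Tcf7 allele was made and whether a library held islets of 1 animal or of several were not stated in the sources used here.

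Endothelial cells line vessels and are held together by junction proteins such as VE-cadherin. Islet endocrine cells, beta cells above all, secrete VEGF-A, which acts on the receptor VEGFR2 of nearby endothelium and keeps islet capillaries dense and fenestrated. Angiopoietin 1 from cells around the vessel activates the receptor TIE2 and steadies the vessel, whereas angiopoietin 2 in many settings opposes it during remodelling. VEGF-C acts mainly on VEGFR3, the receptor that drives growth of lymphatic vessels.

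The libraries held 58.7 to 191 M reads in total, and 1 read was worth 0.00523 to 0.0170 RPM (reads scaled to a fixed library total). Listed genes took 55.7% to 61.2% of the total at 20 weeks and 41.6% to 51.0% at 8 weeks. Tcf7 itself was not lower in the libraries labelled KO. It stood at 4.56 and 2.56 RPM in KO libraries and 1.58 and 0.991 RPM in WT libraries at 20 weeks, and at 0.512 and 0.519 RPM in KO libraries and 0.277 and 0.381 RPM in WT libraries at 8 weeks. A value summed over the gene checks the labels only where the deleted part carries its reads, and the deleted part was not stated, so KO below means the libraries labelled KO. The 9 defining endothelial markers (Pecam1, Cdh5, Kdr, Tie1, Tek, Esam, Egfl7, Emcn and Erg) were detected in every library. Their sum was 54.7 and 83.6 RPM in KO libraries and 90.0 and 68.4 RPM in WT libraries at 20 weeks, against 64.7 and 100 RPM in KO libraries and 78.1 and 112 RPM in WT libraries at 8 weeks. These sums overlapped between all groups. In a whole islet, fewer endothelial cells and less RNA per endothelial cell cannot be told apart.

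Levels differed widely among the members. Set on exon length, Vegfa, the main growth factor of islet vessels, was the most abundant with a mean of 33.0 RPM per kb over the 8 libraries. Plvap, the diaphragm protein of fenestrated capillaries, followed with a level of 4.84 RPM per kb. Next were the VEGF co-receptor Nrp1 at 3.51 RPM per kb and the VEGF-A receptor Kdr at 3.35 RPM per kb. The lowest levels were those of the transcription factor Sox17 at 0.0465 RPM per kb, of Vcam1 at 0.0775 RPM per kb and of the tight junction gene Cldn5 at 0.0826 RPM per kb. On the RPM scale, 7 members averaged 10 RPM or more, 21 averaged 1 to 10 RPM, and 7 stayed under 1 RPM. Cldn5 was at 0 in WT replicate 2 at 20 weeks, where 3 reads would be 0.0444 RPM, and reached at most 0.348 RPM elsewhere. Cldn5, Sox7 and Sox17 did not reach 1 RPM in 2 libraries and were left untested, which leaves 32 members in the tests below.

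**Figure D1:**
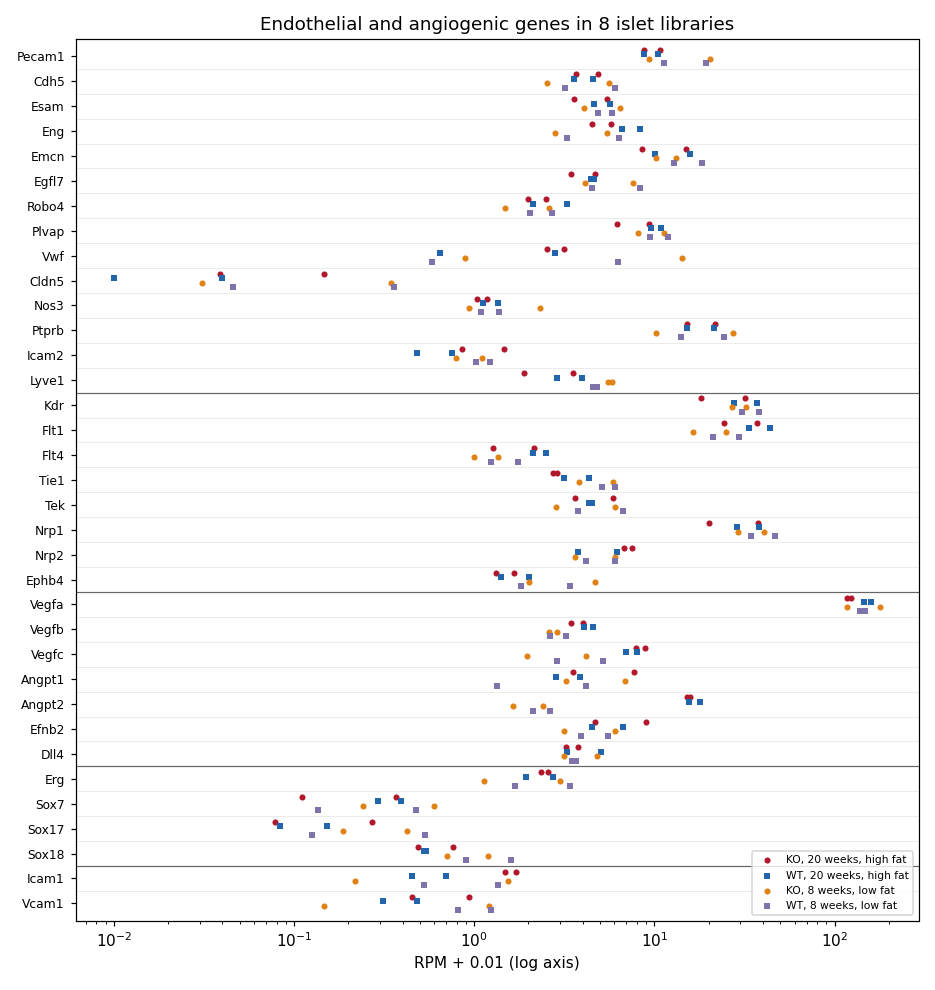
Level of each of the 35 members in each of the 8 libraries, as RPM + 0.01 on a log axis, with 1 point per library and lines between the role groups. Vegfa lies at 117 to 179 RPM in all libraries, Angpt2 and Vegfc have their 20-week points to the right of all 8-week points, and most other members overlap between groups.

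Between 20 weeks on high fat and 8 weeks on low fat, averaged over the genotypes, 4 members rose and 4 fell. Those that rose were the ligands Angpt2, Vegfc and Vegfb and the receptor Flt1. Those that fell were Lyve1, a hyaluronan receptor of lymphatic vessels and of some macrophages, the receptors Tie1 and Ephb4, and the transcription factor Sox18. The test was limma on log2(RPM + 1) over all 13347 genes with enough reads, with Benjamini-Hochberg adjusted p below 0.05 as the threshold. Among all of these genes 31.2% passed as higher and 6.05% as lower, so 4 of 32 higher lies below the share of all genes and 4 of 32 lower lies above it. The median log2 difference was -0.06 over the members tested and 0.17 over all genes tested. By role, 3 of 7 ligands rose, with a median log2 difference of 0.33. Of the 8 receptors 1 rose and 2 fell, and of the 13 surface and vessel wall markers tested 1 fell, with medians of -0.10 and -0.13.

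Vegfc (ENSMUSG00000031520, chromosome 8), the ligand of the lymphatic receptor VEGFR3, stood at 7.92 and 8.82 RPM in KO islets and 8.01 and 6.94 RPM in WT islets at 20 weeks. At 8 weeks it stood at 1.95 and 4.15 RPM in KO islets and 2.88 and 5.19 RPM in WT islets. All 4 libraries at 20 weeks lay above all 4 at 8 weeks, on 465 to 1354 reads a library at 20 weeks and 322 to 805 reads at 8 weeks. The log2 difference was 1.02 ± 0.18 (SE; adjusted p = 0.000288), and 8.53% of all genes tested had a larger one. The mean at 20 weeks was 7.92 ± 0.769 RPM and at 8 weeks 3.54 ± 1.42 RPM (SD, n = 4 each), a ratio of 2.24. Within KO islets the log2 difference was 1.26 ± 0.26 (adjusted p = 0.00176) and within WT islets 0.79 ± 0.26 (adjusted p = 0.0427). The 2 differences were themselves not told apart (interaction 0.48 ± 0.37, adjusted p = 1).

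The promoters of Vegfc and Flt1, which rose, and of Tie1 and Ephb4, which fell, are shown because these are the members with the smallest p-values for which a promoter sequence was at hand. Each runs from 250 bases before the start of the gene to 50 after it, as given by RefSeq on GRCm38.p6, 5′ to 3′ on the strand of the gene. Capitals mark the ETS core CAGGAA or its reverse complement TTCCTG, the core bound by many endothelial ETS factors.
Vegfc, chr8:54077282-54077581, + strand: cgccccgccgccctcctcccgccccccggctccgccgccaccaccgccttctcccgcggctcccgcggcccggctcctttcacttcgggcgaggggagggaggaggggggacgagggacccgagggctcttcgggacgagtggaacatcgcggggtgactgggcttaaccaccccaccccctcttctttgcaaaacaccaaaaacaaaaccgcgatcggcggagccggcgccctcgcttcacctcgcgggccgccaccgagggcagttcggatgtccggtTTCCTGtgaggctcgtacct
Flt1, chr5:147725962-147726261, - strand: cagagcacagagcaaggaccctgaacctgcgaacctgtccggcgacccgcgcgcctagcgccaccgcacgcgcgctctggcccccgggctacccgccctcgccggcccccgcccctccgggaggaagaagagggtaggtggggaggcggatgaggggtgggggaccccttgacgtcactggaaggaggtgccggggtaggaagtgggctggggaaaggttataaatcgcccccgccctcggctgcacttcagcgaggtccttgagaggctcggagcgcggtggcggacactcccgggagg
Tie1, chr4:118489800-118490099, - strand: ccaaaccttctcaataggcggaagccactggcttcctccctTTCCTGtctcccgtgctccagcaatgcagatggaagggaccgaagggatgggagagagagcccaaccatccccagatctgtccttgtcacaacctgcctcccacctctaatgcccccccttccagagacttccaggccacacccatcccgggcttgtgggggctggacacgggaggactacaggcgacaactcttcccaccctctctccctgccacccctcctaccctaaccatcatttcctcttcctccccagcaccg
Ephb4, chr5:137349859-137350158, + strand: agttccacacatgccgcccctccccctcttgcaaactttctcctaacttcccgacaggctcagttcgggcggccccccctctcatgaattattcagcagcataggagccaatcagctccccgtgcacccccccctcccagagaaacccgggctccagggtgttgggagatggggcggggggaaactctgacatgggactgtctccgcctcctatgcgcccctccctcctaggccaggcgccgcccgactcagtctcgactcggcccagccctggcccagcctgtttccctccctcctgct

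Vegfc and Tie1 each held 1 match to the ETS form CAGGAA, and Flt1 and Ephb4 held 0 within these windows. The shorter core GGAA was not counted, and it or its reverse complement TTCC also occurs at unmarked places in each of the 4 windows. In these 4 windows there were 0 matches to the TCF/LEF core CTTTGA, the ETS form CCGGAA, the SOX core AACAAT or the GATA core AGATAA, all searched on both strands. Promoters were at hand for 20 of the 35 members, with 25 starts. CAGGAA or its reverse complement occurred in 11 of these 25 windows and in 30.6% of all 32851 promoter windows. CTTTGA, the core bound by TCF-1 and its relatives, occurred in 3 of the 25 and in 16% of all windows. The motifs were chosen with results of these data known, and a match is a description of letters and not of binding.

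Flt1 (ENSMUSG00000029648, chromosome 5), the gene of VEGFR1, a receptor that binds VEGF-A and VEGF-B tightly and exists also as a soluble decoy, stood at 24.2 and 36.9 RPM in KO islets and 44.0 and 33.5 RPM in WT islets at 20 weeks. At 8 weeks the values were 16.5 and 24.8 RPM in KO islets and 21.2 and 29.4 RPM in WT islets. The ages overlapped, since the lowest value at 20 weeks lay below 2 of the 8-week values. The log2 difference was 0.57 ± 0.18 (adjusted p = 0.0214). Vegfb (ENSMUSG00000024962, chromosome 19), one of its ligands, ran from 3.44 to 4.56 RPM at 20 weeks and from 2.59 to 3.21 RPM at 8 weeks, with no overlap. Its log2 difference was 0.39 ± 0.14 (adjusted p = 0.0332). The other receptors of the VEGF system did not pass: the log2 difference was -0.18 ± 0.18 for Kdr and 0.36 ± 0.15 for Flt4, the gene of VEGFR3, with an adjusted p of 0.0670 for Flt4. The co-receptors Nrp1 (-0.29 ± 0.20) and Nrp2 (0.23 ± 0.18) did not pass either. Vegfa differed by -0.09 ± 0.18, with 117 and 124 RPM in KO islets and 160 and 146 RPM in WT islets at 20 weeks, and 118 and 179 RPM in KO islets and 139 and 148 RPM in WT islets at 8 weeks.

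Angpt2 (ENSMUSG00000031465, chromosome 8) showed the largest difference of the 32 members. It stood at 15.7 and 15.2 RPM in KO islets and 18.0 and 15.5 RPM in WT islets at 20 weeks, against 1.64 and 2.39 RPM in KO islets and 2.10 and 2.64 RPM in WT islets at 8 weeks. The groups were far apart, with means in a ratio of 7.34. The log2 difference was 2.43 ± 0.15 (adjusted p = 1.60e-10), and 1.48% of all genes tested had a larger one. These reads cannot be assigned to Angpt2 with certainty. Angpt2 lies wholly inside Mcph1, a gene for a DNA damage and chromosome condensation protein on the opposite strand, and the use of strand in counting was not stated in the sources used here. Mcph1 stood at 41.4 to 47.9 RPM at 20 weeks and 16.1 to 31.9 RPM at 8 weeks, a log2 difference of 0.78 ± 0.18 (adjusted p = 0.00276). Angpt2 came to 34.4 to 37.5 RPM per 100 RPM of Mcph1 at 20 weeks and 7.76 to 10.2 at 8 weeks, so the ratio was higher in all 4 libraries at 20 weeks. Whether the libraries of both ages were prepared and counted with the same use of strand was not stated in the sources used here. A difference in that use would itself alter this ratio and the difference of Angpt2, and its part in them was not tested.

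**Figure D2:**
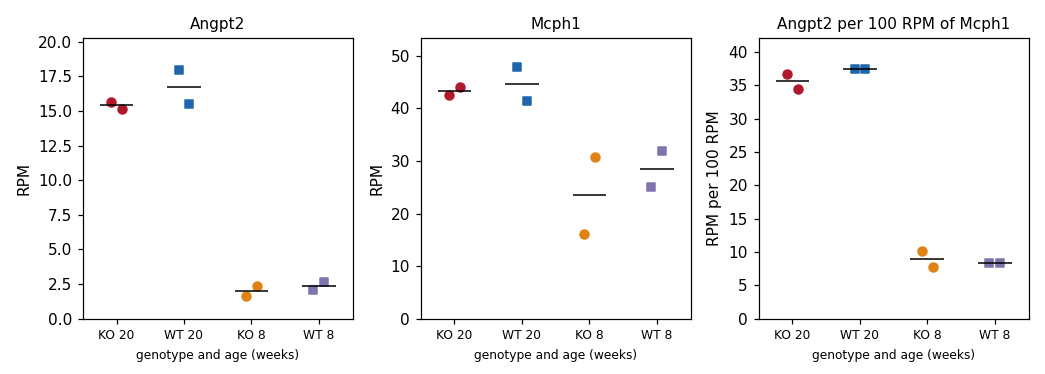
Angpt2, Mcph1 (the opposite-strand gene around it) and their ratio by genotype and age in weeks, with 1 point per library and a line at the mean of each pair. Angpt2 is at 15.2 to 18.0 RPM at 20 weeks and 1.64 to 2.64 RPM at 8 weeks, and the ratio at 20 weeks is 34.4 to 37.5 against 7.76 to 10.2 at 8 weeks.

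Genes placed like Angpt2 stood apart from the rest in this comparison. Of 226 tested genes lying wholly inside an opposite-strand gene with a level of at least 10 RPM, 65.9% were called higher at 20 weeks, with a median log2 difference of 0.95. Of 7011 tested genes with no opposite-strand neighbour over them, 21% were called higher, with a median of 0.07. Between KO and WT the corresponding medians were -0.07 and -0.03 at 20 weeks, and 0.00 and -0.01 at 8 weeks. Of the 32 members tested, 20 had no such overlap, among them Vegfc, Flt1, Vegfb, Lyve1, Tie1 and Sox18, 11 overlapped in part, and Angpt2 was the 1 inside another gene. A fit of the 7011 genes alone, added after the values were seen, called 3 members higher (Vegfc, Flt1 and Vegfb; 19.7% of genes) and 2 lower (Lyve1 and Tie1; 7.06% of genes).

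Lyve1 (ENSMUSG00000030787, chromosome 7) stood at 1.89 and 3.52 RPM in KO islets and 3.96 and 2.85 RPM in WT islets at 20 weeks, against 5.77 and 5.50 RPM in KO islets and 4.77 and 4.55 RPM in WT islets at 8 weeks. The ages did not overlap. The log2 difference was -0.62 ± 0.16 (adjusted p = 0.00490). Within KO islets it was -0.88 ± 0.23 (adjusted p = 0.00890) and within WT islets -0.37 ± 0.23 (adjusted p = 0.272), with an interaction of -0.51 ± 0.32 (adjusted p = 1). Leukocyte markers, whose summed level was 14.2 to 24.4 RPM at 20 weeks and 10.9 to 45.6 RPM at 8 weeks over 20 genes, overlapped between the ages when the genotypes were pooled. In KO islets the sum was 14.2 and 24.4 RPM at 20 weeks, against 10.9 and 14.5 RPM at 8 weeks. There 2 of 13 tested genes were called higher (19.8% of all genes) and 0 lower (2.22% of all genes). In WT islets the sum was 18.7 and 18.6 RPM at 20 weeks, against 40.5 and 45.6 RPM at 8 weeks, and 7 of 13 were called lower (1.63% of all genes). Fibroblast markers summed to 3.27 to 5.67 RPM at 20 weeks and 5.59 to 26.4 RPM at 8 weeks over 10 genes. Their part in the result was not tested.

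Tie1 (ENSMUSG00000033191, chromosome 4), an orphan receptor that modulates TIE2 signalling, stood at 2.72 and 2.85 RPM in KO islets and 4.30 and 3.14 RPM in WT islets at 20 weeks. At 8 weeks it stood at 3.79 and 5.88 RPM in KO islets and 5.10 and 6.05 RPM in WT islets. The 20-week values were lower except that WT replicate 1 at 20 weeks lay above KO replicate 1 at 8 weeks. The log2 difference was -0.54 ± 0.15 (adjusted p = 0.0102). Tek, the gene of TIE2, differed by -0.03 ± 0.20, and its ligand Angpt1 by 0.22 ± 0.25. Ephb4 (ENSMUSG00000029710, chromosome 5), the receptor that marks veins, differed by -0.56 ± 0.19 (adjusted p = 0.0273). It averaged 1.60 ± 0.313 RPM at 20 weeks and 2.97 ± 1.32 RPM at 8 weeks (SD, n = 4 each). Its ligand Efnb2, which marks arteries, differed by 0.33 ± 0.20 and did not pass. Ephb4 shares exon sequence with Zan on the other strand, which ran from 1.53 to 1.88 RPM at 20 weeks and from 0.781 to 1.20 RPM at 8 weeks. Sox18 (ENSMUSG00000046470, chromosome 2), a factor of vessel and lymphatic development, averaged 0.569 ± 0.122 RPM at 20 weeks and 1.09 ± 0.383 RPM at 8 weeks. Its log2 difference was -0.40 ± 0.15 (adjusted p = 0.0392).

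In the deposited scaling Lyve1 was the 1 surface marker that passed between the ages. Pecam1, Esam, Egfl7 and Plvap were called lower as well by median-of-ratios scaling, at -0.73, -0.29, -0.57 and -0.38, and by edgeR and listed-gene scaling. Emcn (-0.53) and Icam2 (-0.42) were added by listed-gene scaling. Pecam1 (CD31, a junction protein of all endothelium) had 8.77 and 10.7 RPM in KO islets and 10.4 and 8.77 RPM in WT islets at 20 weeks, against 9.27 and 20.4 RPM in KO islets and 11.4 and 19.3 RPM in WT islets at 8 weeks. The replicates at 8 weeks were far apart, and the log2 difference in the deposited scaling was -0.53 ± 0.21 (adjusted p = 0.0541). Cdh5, the gene of VE-cadherin, differed by 0.00 ± 0.20 and ran from 3.57 to 4.86 RPM at 20 weeks and from 2.54 to 6.01 RPM at 8 weeks. Emcn, a surface sialomucin of capillaries and veins, differed by -0.15 ± 0.19, Plvap by -0.17 ± 0.16, and the vascular phosphatase gene Ptprb, whose product restrains TIE2, by 0.04 ± 0.24. Egfl7, secreted by endothelium, differed by -0.39 ± 0.19 (adjusted p = 0.116), and the guidance receptor Robo4 by 0.12 ± 0.16. Eng, at 0.44 ± 0.19 (adjusted p = 0.0795), ran from 4.51 to 8.33 RPM at 20 weeks and from 2.81 to 6.36 RPM at 8 weeks. Eng shares exon sequence with Fpgs on the other strand, and Egfl7 with Agpat2. Fpgs ran from 5.07 to 6.465 RPM at 20 weeks and from 7.08 to 8.00 RPM at 8 weeks. Agpat2 ran from 4.94 to 5.48 RPM at 20 weeks and from 4.57 to 6.66 RPM at 8 weeks. Their part in the values of Eng and Egfl7 was not tested. Nos3, the endothelial nitric oxide synthase, lay at 1.02 to 1.34 RPM at 20 weeks and 0.920 to 2.30 RPM at 8 weeks. The ETS factor Erg differed by 0.10 ± 0.19 and the Notch ligand Dll4, a gene of sprouting tips and arteries, by 0.01 ± 0.16. Of the 2 untested SOX factors, Sox7 ran from 0.101 to 0.385 RPM at 20 weeks and from 0.125 to 0.586 RPM at 8 weeks, and Sox17 from 0.0681 to 0.259 RPM at 20 weeks and from 0.116 to 0.523 RPM at 8 weeks.

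**Figure D3:**
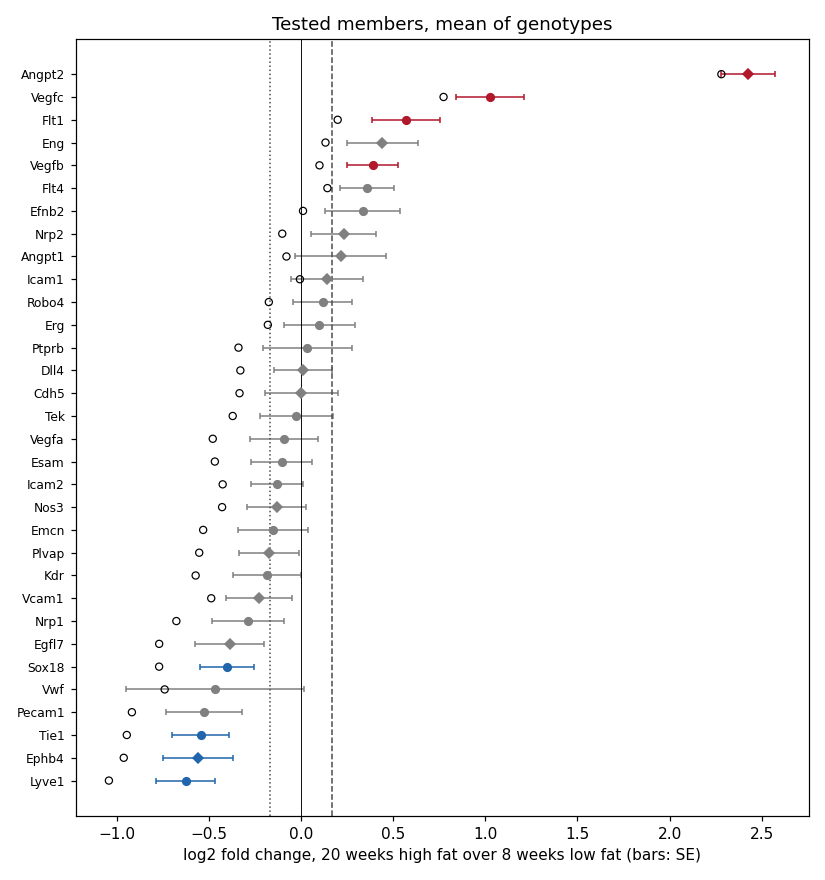
Log2 difference of each of the 32 tested members between 20 weeks on high fat and 8 weeks on low fat, mean of genotypes, with standard errors. Red marks members called higher and blue members called lower, diamonds mark genes overlapped by an opposite-strand gene, and open circles give the value after scaling to reads in listed genes. The dashed line is the median of all genes (0.17) and the dotted line that median after the other scaling (-0.17). The open circle lies to the left of the filled point for every member.

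The balance of calls depended on how libraries were scaled. After scaling to the reads in listed genes the median of all genes moved to -0.17, and 2 members were called higher (19% of all genes) and 13 lower (37.8% of all genes). After median-of-ratios scaling it was -0.02, with 3 members higher (29.4% of all genes) and 11 lower (29.6% of all genes). edgeR on the recovered reads called 3 members higher (28.8% of all genes) and 11 lower (29.9% of all genes). The 8 members named above kept their direction under these 3 settings. Vegfa, at -0.09 in the deposited scaling, was called lower at -0.31 by median-of-ratios scaling and at -0.48 by listed genes, and Kdr likewise at -0.40 and -0.57. edgeR also called Vegfa (-0.33) and Kdr (-0.41) lower. Nrp1, at -0.29 in the deposited scaling, was called lower by median-of-ratios scaling (-0.51), listed genes (-0.68) and edgeR (-0.51). Relative to the median of all genes in the same fit, Vegfc lay 0.85 above it in the deposited scaling, 0.87 above in median-of-ratios scaling and 0.94 above in listed-gene scaling. For Flt1 these distances were 0.40, 0.38 and 0.37.

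Some calls rested on few libraries or on 1 scaling. The calls of Angpt2, Vegfc and Lyve1 held under each of the 17, 18 and 18 alternatives run for them, with log2 differences of 2.25 to 2.84 for Angpt2, 0.77 to 1.23 for Vegfc and -1.04 to -0.46 for Lyve1. Tie1 was called under 16 of 18, Flt1 under 13 of 18, Ephb4 under 11 of 16, Sox18 under 9 of 15 and Vegfb under 6 of 17. With no filter on low genes, which brings more genes into the adjustment, the calls of Flt1, Vegfb, Tie1, Ephb4 and Sox18 were lost at the same log2 differences. Flt1 was lost after scaling to listed genes, where its log2 difference was 0.20 against 0.57 in the deposited scaling. It was also lost without WT replicate 1 at 8 weeks (0.46), KO replicate 2 at 20 weeks (0.43) or WT replicate 1 at 20 weeks (0.48). Tie1 was lost without WT replicate 2 at 20 weeks (-0.45). Ephb4 was lost without KO replicate 1 (-0.51) or WT replicate 2 (-0.48) at 20 weeks, or without KO replicate 2 (-0.33) or WT replicate 2 (-0.40) at 8 weeks. Sox18 was lost with no mean-variance trend, in the fit of genes without opposite-strand overlap, and without KO replicate 1 (-0.34), WT replicate 1 (-0.40) or WT replicate 2 (-0.40) at 20 weeks. Vegfb was lost by median-of-ratios scaling (0.22), listed-gene scaling (0.10), edgeR (0.26) and with the acinar marker mean as covariate (0.39). It was also lost without either library of KO (0.43 and 0.35) or of WT (0.36 and 0.42) at 20 weeks, or of WT (0.34 and 0.44) at 8 weeks. Within WT islets the call of Vegfc was lost under median-of-ratios scaling (0.59), listed-gene scaling (0.44), edgeR (0.65), a pseudocount of 0.1 (0.93), the acinar covariate (0.80), no filter, no trend and the fit of genes without opposite-strand overlap (0.79 in each of these 3). It was also lost without WT replicate 1 (0.70) or WT replicate 2 (0.88) at 20 weeks or WT replicate 1 at 8 weeks (0.45). Within KO islets the call of Lyve1 was lost without KO replicate 1 at 20 weeks (-0.56), and with no filter those of Lyve1 and Vegfc were lost.

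Within a genotype fewer members passed. In KO islets 2 members were higher at 20 weeks (19.8% of all genes) and 1 was lower (2.22% of all genes), namely Angpt2 at 2.46 ± 0.21 (adjusted p = 4.0e-08), Vegfc and Lyve1. In WT islets 2 were higher (16.9% of all genes), Angpt2 at 2.40 ± 0.21 (adjusted p = 5.96e-08) and Vegfc, and 0 were lower by limma (1.63% of all genes), where edgeR called 4 (18.1% of all genes). In WT islets 7 of 32 members had an unadjusted p below 0.05, where 31.9% of all genes did, and Tie1 and Sox18 among them were lower, at -0.49 and -0.54. Over the 4 libraries of each age, 3 of 32 members (Angpt2, Vegfc and Vegfb) lay wholly higher at 20 weeks, where 30.4% of all genes did, and 1 (Lyve1) wholly lower, where 8.19% did.

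Members were also set against the summed RPM of the 9 endothelial markers in the same library. That sum is of RNA and not of cells, and Kdr was its largest part. Pecam1, Esam, Egfl7, Kdr and Tie1 in it were called lower at 20 weeks by median-of-ratios scaling and edgeR. A lower sum raises every ratio to it. Flt1 came to 44.3 and 44.1 RPM per 100 RPM of the 9 endothelial markers in KO islets and 48.9 and 48.9 in WT islets at 20 weeks, against 25.4 and 24.8 in KO islets and 27.1 and 26.3 in WT islets at 8 weeks. The libraries of a group were close to each other and the ages were far apart. Flt4 ran from 2.30 to 3.09 per 100 RPM of markers at 20 weeks and from 1.35 to 1.58 at 8 weeks. Vegfc ran from 8.90 to 14.5 at 20 weeks and from 3.01 to 4.64 at 8 weeks. Kdr, itself 1 of the 9 markers, overlapped, with 33.1 to 41.5 at 20 weeks and 32.1 to 41.4 at 8 weeks. Of the 23 tested members outside the marker sum, 8 lay wholly higher at 20 weeks (Eng, Robo4, Flt1, Flt4, Vegfb, Vegfc, Angpt2 and Efnb2) where 43.6% of all genes did, and 1 (Sox18) wholly lower, where 0.854% did. Lyve1 overlapped on this scale, with 3.46 to 4.40 at 20 weeks and 4.07 to 8.91 at 8 weeks. These ratios do not depend on the library total and were read as a description, without a test.

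**Figure D4:**
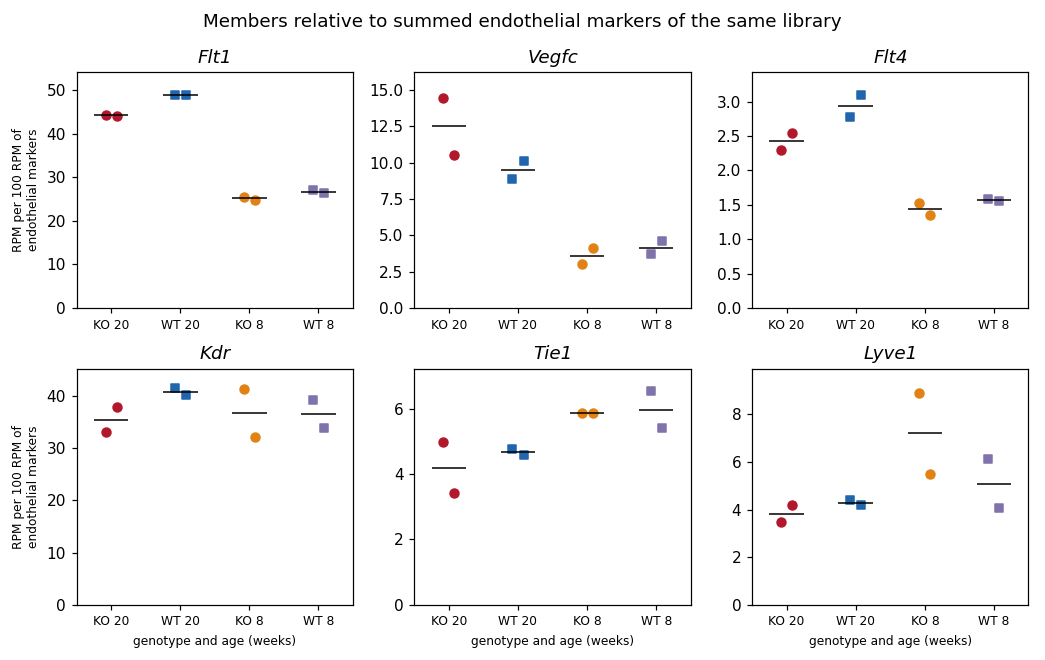
RPM per 100 RPM of the 9 summed endothelial markers of the same library, by genotype and age in weeks, with 1 point per library and a line at the mean of each pair. Flt1, Vegfc and Flt4 are higher in all 4 libraries at 20 weeks than at 8 weeks, Kdr and Lyve1 overlap, and Tie1 is lower; Kdr and Tie1 are themselves part of the marker sum.

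Between KO and WT islets 0 of 32 members passed limma's test at 20 weeks, where 0.045% of all genes did, and 0 of 32 at 8 weeks, where 0.21% did. The interaction, the difference between these 2 comparisons, called 0 of 32 members, against 0.0674% of all genes. edgeR on the recovered reads also called 0 members in each of the 3. At an unadjusted p below 0.05, limma had 1 member in each (Icam1 at 20 weeks, Angpt1 at 8 weeks, Icam1 for the interaction), where 4.36%, 3.48% and 3.42% of all genes did. By edgeR the counts were 4 of 32 members at 20 weeks (10.6% of all genes), 0 at 8 weeks (6.22%) and 2 for the interaction (7.44%). The median log2 difference of the members was -0.11 at 20 weeks, with -0.04 over all genes, and -0.14 at 8 weeks, with -0.01 over all genes. Standard errors of single members ran from 0.19 to 0.68 on the log2 scale, which limits the differences that 2 libraries a group can resolve.

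Icam1, an adhesion molecule that endothelium and other cells raise in inflammation, stood at 1.46 and 1.70 RPM in KO islets and 0.686 and 0.444 RPM in WT islets at 20 weeks. At 8 weeks it stood at 0.209 and 1.53 RPM in KO islets and 0.518 and 1.35 RPM in WT islets. The genotypes did not overlap at 20 weeks and overlapped at 8 weeks, where the libraries of each group were far apart. The log2 difference was 0.73 ± 0.28 at 20 weeks (adjusted p = 0.831) and -0.11 ± 0.28 at 8 weeks. A fit of the 4 libraries at 20 weeks alone called Icam1, and no other setting did. The leukocyte marker sum was 14.2 and 24.4 RPM in KO islets and 18.7 and 18.6 RPM in WT islets at 20 weeks, and overlapped. Vcam1, its partner in leukocyte capture, ran from 0.443 to 0.922 RPM in KO islets and from 0.302 to 0.473 RPM in WT islets at 20 weeks, with a log2 difference of 0.27 ± 0.25.

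Angpt1 stood at 3.51 and 7.68 RPM in KO islets and 2.82 and 3.85 RPM in WT islets at 20 weeks, and at 3.23 and 6.88 RPM in KO islets and 1.32 and 4.16 RPM in WT islets at 8 weeks. KO and WT overlapped at both ages. The log2 differences were 0.54 ± 0.35 at 20 weeks and 0.74 ± 0.35 at 8 weeks, both with an adjusted p of 1. Vwf, the clotting factor stored in endothelial granules, varied widely between replicates, with 3.13 and 2.54 RPM in KO islets and 0.639 and 2.78 RPM in WT islets at 20 weeks, and 0.878 and 14.3 RPM in KO islets and 0.572 and 6.29 RPM in WT islets at 8 weeks. Without WT replicate 2 at 8 weeks, the log2 differences between KO and WT islets at 8 weeks were 1.77 for Vwf and 1.31 for Angpt1. That fit rests on 1 WT library at 8 weeks, replicate 1, which held the lowest value of both genes among the 8 libraries.

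**Figure D5:**
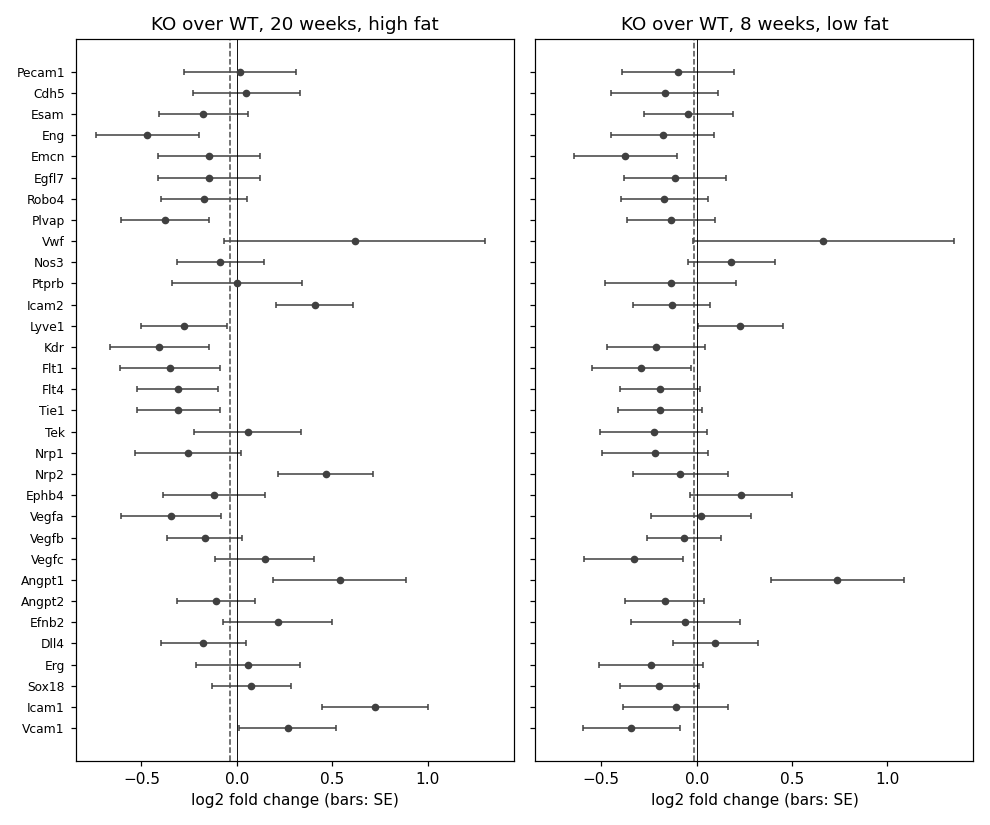
Log2 difference between KO and WT islets of the 32 tested members, at 20 weeks on high fat (left) and 8 weeks on low fat (right), with standard errors and a dashed line at the median of all genes. No member passed the test in either panel; Icam1 at 20 weeks (0.73) and Angpt1 at 8 weeks (0.74) have the largest values.

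At 20 weeks 3 members lay wholly higher in KO than in WT islets (Icam1, Icam2 and Nrp2), where 12.3% of all genes did, and 5 wholly lower (Eng, Plvap, Tie1, Vegfa and Vegfb), where 21.2% did. Nrp2, a co-receptor for VEGF-C and semaphorins, had 7.46 and 6.76 RPM in KO islets and 6.21 and 3.77 RPM in WT islets. Eng, a co-receptor of TGF-beta and BMP signals, had 4.51 and 5.71 RPM in KO islets and 8.33 and 6.60 RPM in WT islets. At 8 weeks Lyve1 was the 1 member wholly higher in KO islets, where 7.42% of all genes were, and 0 lay wholly lower, where 5.72% were. Marker sums of some other cell types lay apart between the genotypes at 8 weeks. Leukocyte markers summed to 10.9 and 14.5 RPM in KO islets and 40.5 and 45.6 RPM in WT islets, and acinar markers to 29960 and 15290 RPM in KO islets and 3690 and 10440 RPM in WT islets. Of these, 7 of 13 tested leukocyte genes were called lower in KO islets and 1 of 24 acinar genes higher. Among all genes 0.21% passed in either direction. At 20 weeks the acinar sums overlapped, at 11070 and 13020 RPM in KO islets and 12460 and 36300 RPM in WT islets. The part of these cell types in the members' values was not tested.

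Replicates of a group differed in most members together. Replicate 2 lay above replicate 1 in 28 of 32 tested members in KO and 3 of 32 in WT islets at 20 weeks, and in 31 of 32 members in both KO and WT islets at 8 weeks. Over all genes tested replicate 2 was the higher in 67.0% and 16.9% at 20 weeks for KO and WT, and in 94.0% and 74.4% at 8 weeks for KO and WT. The median log2 difference of replicate 2 over replicate 1 among members was 0.27 in KO and -0.25 in WT islets at 20 weeks, and 0.60 in KO and 0.44 in WT islets at 8 weeks.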

How the data were processed

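Per the labels' protocols, total RNA of islets went through RiboZero depletion and the TruSeq RNA preparation. CASAVA 1.8, FastQC, the aligner TopHat 1.4.1 and the build mm9 come from the submitters' processing notes. How reads were counted, on which annotation and with which use of strand was not stated in the sources used here. The authors deposited 1 table in RPM, scaled to a total larger than the reads in listed genes. Values were whole multiples of 1 read (100% within 0.01 of a read), from which reads and totals were recovered.

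From these, log2(RPM + 1) was computed, which understates changes of low genes. A gene entered the tests if 2 or more libraries reached 1 RPM, which kept 13347. limma 3.58.1 (R 4.3.3) fitted the 4 group means with a mean-variance trend, 4 residual and 14.0 prior degrees of freedom. As the unit was RPM, the quasi-likelihood test of edgeR 4.0.16 (TMM) on recovered reads was an alternative. Both were also run on simulated counts. These had the same spread for every gene and no shift shared by the genes of a library, unlike the real libraries. They therefore do not measure how either test performs here. P-values were Benjamini-Hochberg adjusted over all genes tested, and measure only the spread between these libraries, which may be technical. Replicates differed far beyond sampling noise (chi-square per degree of freedom 45.0 to 354), so none was merged.

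The members and lists were chosen with earlier results of these data known. Named are all members, and of each other list up to 3 genes past the test with the smallest p. Strand overlaps and exon lengths came from GENCODE M21 (GRCm38), where 91.8% of identifiers matched, and promoters from RefSeq (GRCm38.p6). Identifiers gave back 25 symbols stored as dates, and 1 row was kept for each of 129 repeated symbols. Alternatives were 2 other scalings, other filters and pseudocount, no trend, fewer libraries in the fit, a threshold of 0.10, an acinar covariate, edgeR, and leaving out each library.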

Additional observations from a re-analysis of the deposited data

How the results depend on the processing

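The counts of members called between KO and WT islets were 0 in each direction under each alternative run, except for 1 higher at 20 weeks in a fit of the compared libraries alone and a range of 0 to 2 higher at 8 weeks when 1 library was left out (2 without WT replicate 2 at 8 weeks), where 1.41% and 0.852% of all genes were higher. Between 20 and 8 weeks, mean of genotypes, the 4 higher calls became 2 after listed-gene scaling and 2 with no filter, and 2 to 7 with a library left out (7 without KO replicate 2 at 8 weeks; 2 without WT replicate 1 at 8 weeks, KO replicate 2 or WT replicate 1 at 20 weeks). The 4 lower calls became 11 with median-of-ratios scaling, 13 with listed-gene scaling, 1 with no filter, 11 by edgeR and 2 among genes without opposite-strand overlap, and 1 to 8 with a library left out (8 without KO replicate 1 and 7 without WT replicate 1 at 8 weeks; 1 without WT replicate 2 at 20 weeks; 2 without KO replicate 2 or WT replicate 2 at 8 weeks or KO replicate 1 at 20 weeks). In KO islets the 2 higher calls became 1 with no filter, 1 without overlapping genes and 2 to 8 with a library left out (8 without KO replicate 2 at 8 weeks). There the 1 lower call became 6 with median-of-ratios and 7 with listed-gene scaling, 0 with no filter, 2 with only the compared libraries, 3 at a threshold of 0.10, 6 by edgeR, and 0 to 6 with a library left out. In WT islets the 2 higher calls became 1 under both scalings, no filter, a pseudocount of 0.1, no trend, the acinar covariate and edgeR, 5 with only the compared libraries, 0 without overlapping genes, and 1 to 4 with a library left out. There the 0 lower calls became 4 and 7 under median-of-ratios and listed-gene scaling, 2 with only the compared libraries, 1 at a threshold of 0.10, 4 by edgeR, and 0 to 3 with a library left out. At a threshold of 0.10, mean of genotypes, Flt4 and Eng also passed as higher and Pecam1 as lower. Of all genes 36.0% were then higher and 8.94% lower. The 4 higher calls of that comparison became 3 with median-of-ratios scaling, by edgeR and among genes without opposite-strand overlap. Shares of all genes moved with these settings. Mean of genotypes, 21.2% of all genes were higher and 3.82% lower with no filter, and 22.6% to 45.0% higher and 2.56% to 11.6% lower with a library left out. In KO islets 38.5% were higher without KO replicate 2 at 8 weeks, so the 8 of 32 members lie below that share, and 10.4% were with no filter and 10.5% without overlapping genes. There 21.7%, 23.0% and 21.6% were lower with median-of-ratios scaling, listed-gene scaling and edgeR. In WT islets 30.1% were higher with only the compared libraries and at most 29.1% with a library left out, and 17.4%, 29.4% and 18.1% were lower with median-of-ratios scaling, listed-gene scaling and edgeR. Apart from the change of scale and the fewer genes or libraries in a fit, the cause was not tested. Where a group was left with 1 library, that library was assumed to vary like the other groups. No value reversed its direction among called members. No paired analysis was possible because the labels give no replicate numbers shared between groups. Of the 35 members 7 averaged below 1 RPM. The filter of 1 RPM in 2 libraries left 3 members out of the tests above.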

Other observations

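Genes of endothelium, vessel growth and the vessel wall outside the 35 members were described with 4 further lists and 2 neighbouring cell types, with no test of a list. Between 20 weeks on high fat and 8 weeks on low fat, mean of genotypes, 5 of 23 other endothelial genes were higher and 4 lower, and the median log2 difference was -0.08, where all genes had 0.17. Among all genes tested 31.2% were higher and 6.05% lower, against which the counts of each list here stand. The proton-sensing receptor Gpr4 (1.06 ± 0.14), the scavenger receptor Stab2 (1.18 ± 0.18) and Rasip1 (1.10 ± 0.17), needed for vessel lumens in mice, had the smallest p. Stab2 and Rasip1 overlap in part with a gene on the opposite strand and Gpr4 does not. Of 14 other endothelial transcription factors 5 were higher, led by Foxo1 (1.02 ± 0.20), Prox1 (0.79 ± 0.18) and Epas1 (0.67 ± 0.23), and islet endocrine cells also express Foxo1 and Prox1. Of 35 other angiogenic ligands and receptors 10 were higher, led by the guidance receptors Robo1 (1.18 ± 0.20) and Plxna2 (0.99 ± 0.18) and by the growth factor Hgf (0.76 ± 0.16). At 20 weeks Robo1 ran from 134.6 to 188.9 RPM and Plxna2 from 118.7 to 155 RPM. Each lay above the summed 9 endothelial markers, at 54.7 to 90.0 RPM. Which islet cells gave these reads was not tested.

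In the vascular basement membrane 2 of 13 genes were higher and 1 lower. Sparc, a collagen-binding matrix protein, fell by 1.27 on the log2 scale (SE 0.18), to 4.73 and 8.40 RPM in KO islets and 6.86 and 5.96 RPM in WT islets at 20 weeks, against 14.2 and 22.4 RPM in KO islets and 14.1 and 17.8 RPM in WT islets at 8 weeks. The perlecan gene Hspg2 (0.996 ± 0.241) and the laminin gene Lama5 (0.74 ± 0.23) were higher. Of 9 tested pericyte and smooth muscle genes 1 was higher and 2 lower, and the summed level of that list was 33.8 to 57.4 RPM at 20 weeks and 43.7 to 73.2 RPM at 8 weeks. Of 4 tested lymphatic genes Prox1 was higher and Lyve1 lower and the other 2 did not pass. Of the genes named for their values here, Foxo1, Prox1 and Robo1 also overlap in part with a gene on the opposite strand, and Epas1, Plxna2, Hgf, Sparc, Hspg2 and Lama5 do not.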
